A study of Mus musculus with 12 samples.

Results

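The genes described here build the extracellular matrix of the liver or mark its stellate cells, and were given as a list of 40 matrix, stellate cell and fibrosis genes. Of these, 38 were measured by a probe set annotated to exactly 1 gene, out of 18193 genes measured that way. Fbn1 and Loxl2 were not analysed here, and Ctgf appears under its current symbol Ccn2. Where a gene had several probe sets, the one brightest on average across all 12 arrays stands for it. A probe set is a group of short probes for 1 transcript on an Affymetrix mouse genome array. RNA came from livers of C57Bl/6 mice aged 3 months. The 3 groups were wild type mice with no agent, Atp7b-/- mice with no agent, and Atp7b-/- mice treated with supplemental zinc, each with 4 arrays. Both mutant groups carry the same loss of Atp7b, the ATPase through which hepatocytes export copper into bile, and no zinc-treated wild type group was analysed here. The labels give neither the zinc dose nor its duration, and do not state for every array that it came from a separate animal, so the p-values describe array-to-array spread, and that spread can be partly technical.

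Hepatic stellate cells lie between hepatocytes and sinusoidal endothelium. In the quiescent state they store vitamin A as retinyl esters. On injury they can become contractile myofibroblasts that express smooth muscle actin and secrete fibrillar collagens, and this conversion is driven by transforming growth factor beta and platelet-derived growth factor (PDGF). Matrix is also made by portal fibroblasts and by endothelial cells, and its amount is set both by synthesis and by proteases with their inhibitors. In a whole liver sample, fewer cells of a type and less RNA per cell cannot be told apart.

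Deposited levels are on a log2 scale, so 1 unit is a doubling. The median level of all genes was 6.58. In 31 of the 38 genes the highest group mean reached that median. Col1a1, Lama1, Eln, Timp1, Lox, Hgf and Tgfb1 stayed below it in every group, and Timp1 and Lox also lay below the lower quartile of 4.83. A real difference in such dim genes can go unseen on an array. The targeted gene Atp7b lay between 8.51 and 8.69 in wild type, between 6.91 and 7.25 in Atp7b-/- and between 6.57 and 6.98 with zinc, which separates wild type from mutant arrays as labelled. The mutant groups overlapped, so Atp7b does not check the zinc label. Pancreatic acinar markers were high in 2 zinc-treated livers: over 11 such genes, replicate 2 averaged 9.65 and replicate 3 averaged 6.96, whereas the other arrays averaged 5.52 to 5.81. Atp7b-/- replicate 1 correlated less well with its group (median 0.991) than the remaining Atp7b-/- arrays did (0.996). The level of 3' over 5' control probe sets for actin and Gapdh, a measure of RNA integrity, was 0.79 to 0.88 log2 units in Atp7b-/-, against 0.62 to 0.78 in wild type and 0.54 to 0.74 with zinc. This measure and the untreated mutant group cannot be told apart.

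The promoters of 4 genes are shown, chosen after their values were seen. Reln, Timp2 and Col3a1 rose with zinc against untreated mutants. Mmp14 was lowest on average with zinc, but its difference from untreated mutants did not pass. The windows of Timp3, with 1 GC box, and of Col15a1, with 0 searched motifs, are not shown. Each sequence holds the 250 bases before the annotated transcription start, 5' to 3' on the gene's strand, from RefSeq build GRCm38.p6. Capitals mark matches on either strand to 5 motifs. These are the TATA box, searched as TATAAA, the GC box, searched as GGGCGG, and the CCAAT box, searched by those letters. The others are the core of the metal response element, searched as TGCACNC and as TGCGCNC, and the CAGA box bound by SMAD factors, searched as CAGACA. The windows are chr1:45311288-45311537 on the plus strand for Col3a1, chr5:22344706-22344955 on the minus strand for Reln, chr11:118355412-118355661 on the minus strand for Timp2 and chr14:54431348-54431597 on the plus strand for Mmp14.
Col3a1: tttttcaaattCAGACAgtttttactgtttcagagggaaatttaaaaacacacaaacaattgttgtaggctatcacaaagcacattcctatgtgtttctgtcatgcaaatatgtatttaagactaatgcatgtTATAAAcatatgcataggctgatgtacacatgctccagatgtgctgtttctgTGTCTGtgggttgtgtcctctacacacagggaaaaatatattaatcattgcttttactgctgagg
Reln: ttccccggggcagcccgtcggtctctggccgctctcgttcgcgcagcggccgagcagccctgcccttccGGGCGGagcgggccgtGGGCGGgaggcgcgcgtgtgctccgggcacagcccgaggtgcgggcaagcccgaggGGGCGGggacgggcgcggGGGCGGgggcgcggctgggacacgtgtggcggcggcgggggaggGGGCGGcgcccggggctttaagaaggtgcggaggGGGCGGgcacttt
Timp2: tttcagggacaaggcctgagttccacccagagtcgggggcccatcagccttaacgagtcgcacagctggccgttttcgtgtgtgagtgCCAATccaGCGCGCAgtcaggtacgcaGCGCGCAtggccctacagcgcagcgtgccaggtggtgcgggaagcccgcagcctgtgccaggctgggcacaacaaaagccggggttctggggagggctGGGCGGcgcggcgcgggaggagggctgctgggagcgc
Mmp14: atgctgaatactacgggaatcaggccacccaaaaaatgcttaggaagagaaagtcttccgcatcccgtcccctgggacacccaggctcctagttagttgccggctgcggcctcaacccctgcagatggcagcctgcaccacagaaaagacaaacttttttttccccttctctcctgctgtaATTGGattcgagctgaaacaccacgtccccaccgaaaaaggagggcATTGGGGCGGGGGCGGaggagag
The Reln window held 6 GC boxes and no other searched motif. The Timp2 window held 2 metal response element cores, read as GCGCGCA on the shown strand, with a CCAAT box and a GC box. The Col3a1 window held a TATA box and 2 CAGA boxes. The Mmp14 window held 2 CCAAT boxes, read as ATTGG, and 2 adjoining GC boxes, the first of which overlaps a CCAAT box. Among 32851 RefSeq promoter windows of this length, 12.4% held the TATA box, 32.7% the GC box, 33.8% the CCAAT box, 21.4% the metal response element core and 17.1% the CAGA box. Of 27 windows of 24 listed genes, 16 held a GC box, 9 a CCAAT box, 6 a metal response element core, 6 a CAGA box and 1 a TATA box. These matches describe letters in the windows and were not tested against the expression values.

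In untreated Atp7b-/- livers against wild type, 7 of the 38 passed an adjusted p of 0.05 in limma, or 18.4%, beside 24.6% of all genes. Ccn2 and Col15a1 rose, and Timp3, Col14a1, Bgn, Col6a1 and Mmp14 fell. The higher calls were 2 of 38 beside 14.3% of all genes, and the lower calls 5 of 38 beside 10.3%. The median log2 change was -0.03 over the 38 genes and -0.05 over all genes. In 6 of the 38 the arrays of both groups did not overlap, beside 26.4% of all genes. The count depends on the scaling. After quantile normalization 13 of the 38 passed (2 rose and 11 fell), or 34.2%, beside 25.04% of all genes. Median centring also called 13 (2 rose and 11 fell), beside 32.3% of all genes.

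With zinc against untreated Atp7b-/-, 5 of the 38 genes passed, or 13.2%, beside 6.54% of all genes. All 5 were higher with zinc: Reln, Lum, Timp2, Col4a2 and Col3a1. Of all genes, 1.70% were called higher and 4.84% lower. No listed gene was called lower by limma, with 2 of the 38 lower at an unadjusted p under 0.05. The median log2 change was 0.14 over the 38 genes and 0.01 over all genes, and 10 of the 38 did not overlap between groups, beside 15.3% of all genes. The count rests on few arrays. It was 1 when zinc-treated replicate 3 or 4, or Atp7b-/- replicate 2 or 4, was left out, 2 without zinc-treated replicate 2, and 3 without Atp7b-/- replicate 3 or wild type replicate 1 or 3. It was also 1 without both zinc-treated arrays that carried pancreatic transcripts. That fit held 10 arrays instead of 12. Having fewer arrays and lacking the pancreatic transcripts cannot be told apart in this count.

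With zinc against wild type, 1 of the 38 passed, or 2.63%, beside 7.62% of all genes. That gene was Mmp14, which was lower with zinc, beside 2.73% of all genes called lower. Limma called 0 of the 38 higher, beside 4.89% of all genes, with 9 of the 38 higher at an unadjusted p under 0.05. The median change was 0.09 over the 38 genes and -0.02 over all genes, and 2 of the 38 did not overlap, beside 14.3%. The number called was 4 without zinc-treated replicate 1 and 2 without wild type replicate 4. The 3 comparisons share groups, so the same arrays enter more than one of them.

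**Figure D1:**
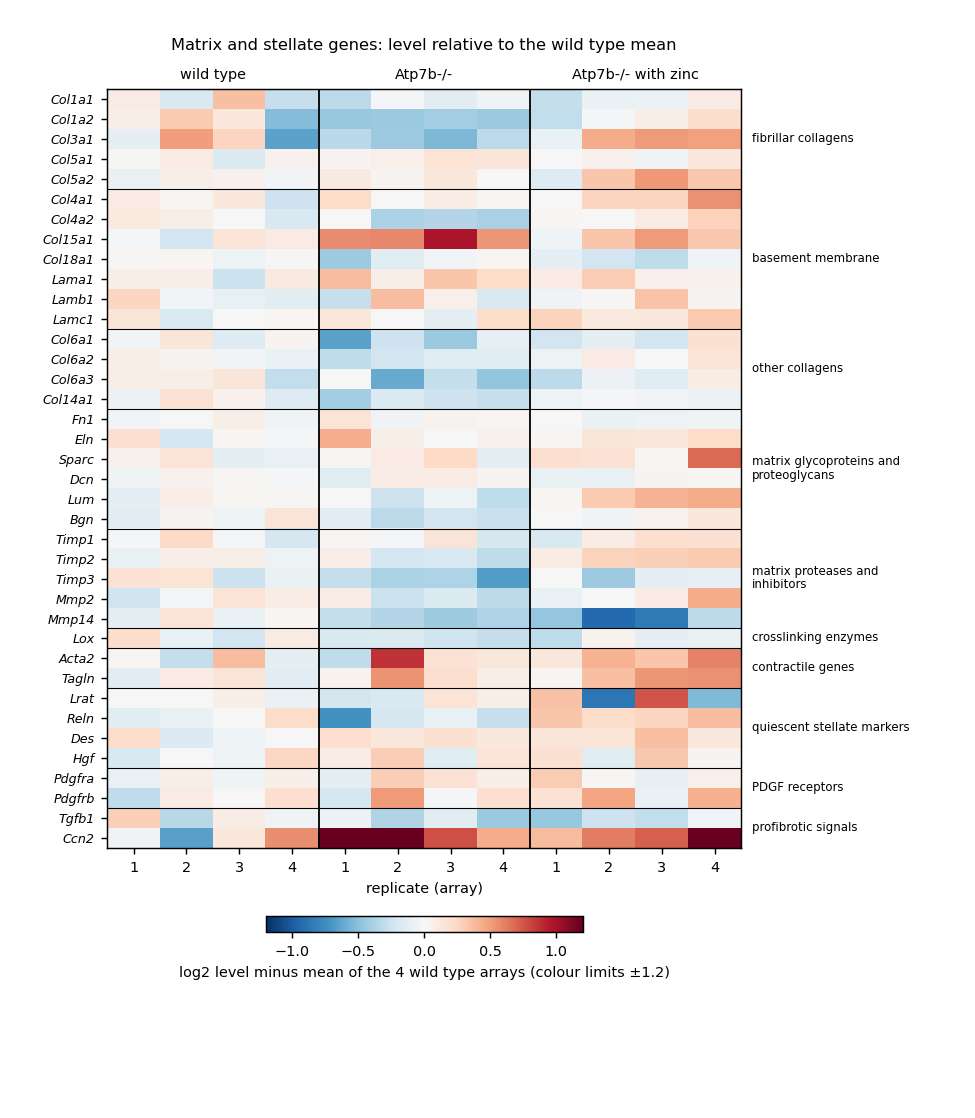
Log2 level of the 38 genes on each of the 12 arrays (columns, by group and replicate) minus the mean of the 4 wild type arrays, with genes in rows by role and colour limits at 1.2 log2 units in either direction. Ccn2 and Col15a1 are high across the 4 Atp7b-/- arrays, Mmp14 is low on all 8 mutant arrays, and most fibrillar collagen cells are pale.

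Fibrillar collagens form the tensile fibres of scar tissue. None of the 5 measured here passed against wild type in limma, with 1 lower at an unadjusted p under 0.05, and their median log2 change was -0.13. Col1a1, which encodes the alpha 1 chain of type I collagen, was 5.94 ± 0.29 (SD, n = 4) in wild type, 5.81 ± 0.13 in Atp7b-/- and 5.86 ± 0.16 with zinc. Its mutant difference was -0.13, with a 95% interval from -0.41 to 0.16. Col1a2, the partner chain of type I collagen, read 8.48, 8.72, 8.53 and 7.88 on the wild type arrays. It was 7.97 ± 0.02 (SD, n = 4) in Atp7b-/-, and read 8.10, 8.39, 8.49 and 8.61 with zinc. The 4 untreated mutant arrays lay within a narrow band below 3 of the 4 wild type arrays and below every zinc-treated array. Neither Col1a2 difference passed, with -0.44 (adjusted p = 0.0523) for mutant against wild type and 0.43 (adjusted p = 0.114) for zinc against untreated. The first passed without wild type replicate 4 or zinc-treated replicate 1, and the second without wild type replicate 4.

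Col3a1 encodes type III collagen, which forms fine reticular fibres with type I. It read 9.68, 10.30, 10.05 and 9.15 in wild type, 9.47, 9.36, 9.26 and 9.48 in Atp7b-/-, and 9.71, 10.24, 10.30 and 10.29 with zinc. All zinc-treated arrays lay above all untreated mutant arrays, while the wild type arrays spanned both. Col3a1 was 0.74 ± 0.20 (SE) higher with zinc than without, a 1.68-fold difference with an adjusted p of 0.0455 in limma. The call was lost when any 1 of 9 arrays was left out, namely wild type replicate 1 or 3, zinc-treated replicate 2, 3 or 4, or any Atp7b-/- array. Without both pancreatic arrays the difference was 0.61, with an adjusted p of 0.273. The mutant difference from wild type was -0.40 (adjusted p = 0.162), and passed without wild type replicate 4, at -0.62 (adjusted p = 0.0152). A second, dimmer Col3a1 probe set also gave a difference of 0.74 for zinc. It differed from the first in placing zinc-treated livers 0.70 above wild type, where the brighter one gave 0.34. Col5a1 and Col5a2, which encode chains of the type V collagen that helps start fibrils, did not pass in any comparison. Their differences lay between -0.07 and 0.26. Without zinc-treated replicate 1, Col5a2 passed with zinc, at 0.32 against untreated mutants (adjusted p = 0.0441) and 0.39 against wild type (adjusted p = 0.0126).

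Basement membranes line vessels and ducts and are thin in the normal sinusoid. Of 7 such genes, Col15a1 alone passed against wild type, and the median change of the 7 was 0.06. Col15a1 encodes type XV collagen, which links basement membranes to the underlying fibres. It read 6.32, 6.10, 6.49 and 6.44 in wild type, 6.91, 6.92, 7.32 and 6.87 in Atp7b-/-, and 6.29, 6.67, 6.85 and 6.66 with zinc. The untreated mutant arrays stood above all arrays of both other groups. The mutant rise was 0.67 ± 0.13 (SE), or 1.59-fold, with an adjusted p of 0.00272. It kept its call without any 1 array and lost it in 1 of 24 alternative settings, which asks for a change beyond 0.3 log2 units. With zinc, Col15a1 differed by -0.39 from untreated mutants (adjusted p = 0.105) and by 0.28 from wild type (adjusted p = 0.245).

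Col4a1 and Col4a2 encode the 2 chains of the common type IV collagen network. Col4a2 read 7.74, 7.69, 7.62 and 7.44 in wild type, 7.61, 7.25, 7.27 and 7.23 in Atp7b-/-, and 7.63, 7.63, 7.72 and 7.90 with zinc. All zinc-treated arrays exceeded the untreated mutant arrays, although Atp7b-/- replicate 1 was nearly level with the lowest of them. The zinc difference of 0.38 ± 0.10 (SE), with an adjusted p of 0.0455, was lost without any 1 of 10 arrays, the 2 exceptions being Atp7b-/- replicate 1 and wild type replicate 4. Without both pancreatic arrays it was 0.43 (adjusted p = 0.130). The mutant difference of -0.28 (adjusted p = 0.0636) passed without Atp7b-/- replicate 1, at -0.37 (adjusted p = 0.0127), and also without wild type replicate 4. Col4a1 differed by 0.18 with zinc (adjusted p = 0.396). Col18a1, whose product is the precursor of endostatin, and the laminin chains Lama1, Lamb1 and Lamc1 did not pass in any comparison. Their differences lay between -0.18 and 0.25.

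All 4 remaining collagens were lower in Atp7b-/- than in wild type, with a median change of -0.31, and 2 of them passed. Col14a1 encodes type XIV collagen, which sits on the surface of fibrils. It read 8.86, 9.11, 8.98 and 8.78 in wild type, 8.51, 8.76, 8.69 and 8.65 in Atp7b-/-, and 8.87, 8.92, 8.90 and 8.86 with zinc. The untreated mutant arrays lay below every other array, and the zinc-treated ones fell inside the wild type range. The mutant fall was -0.28 ± 0.08 (SE, adjusted p = 0.0253), and was lost without wild type replicate 2 or 3 or without Atp7b-/- replicate 1 or 4. All 3 Col14a1 probe sets gave a lower mutant level, from -0.61 to -0.28. Col6a1, a chain of the beaded filaments of type VI collagen, fell by 0.36 (SE 0.12, adjusted p = 0.0488). Its wild type and mutant arrays overlapped, at 6.59 to 6.89 and 6.10 to 6.64. The Col6a1 call held without wild type replicate 3, zinc-treated replicate 4 or Atp7b-/- replicate 4 and was lost without any 1 of the other 9 arrays. Its partners Col6a2 and Col6a3 had changes of -0.20 (adjusted p = 0.0634) and -0.34 (adjusted p = 0.0867). Col6a3 passed without wild type replicate 4 or Atp7b-/- replicate 1. With zinc all 4 of these collagens were above their untreated mutant mean, by 0.23 to 0.26, and limma called 0 of them, with 2 past an unadjusted p of 0.05.

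**Figure D2:**
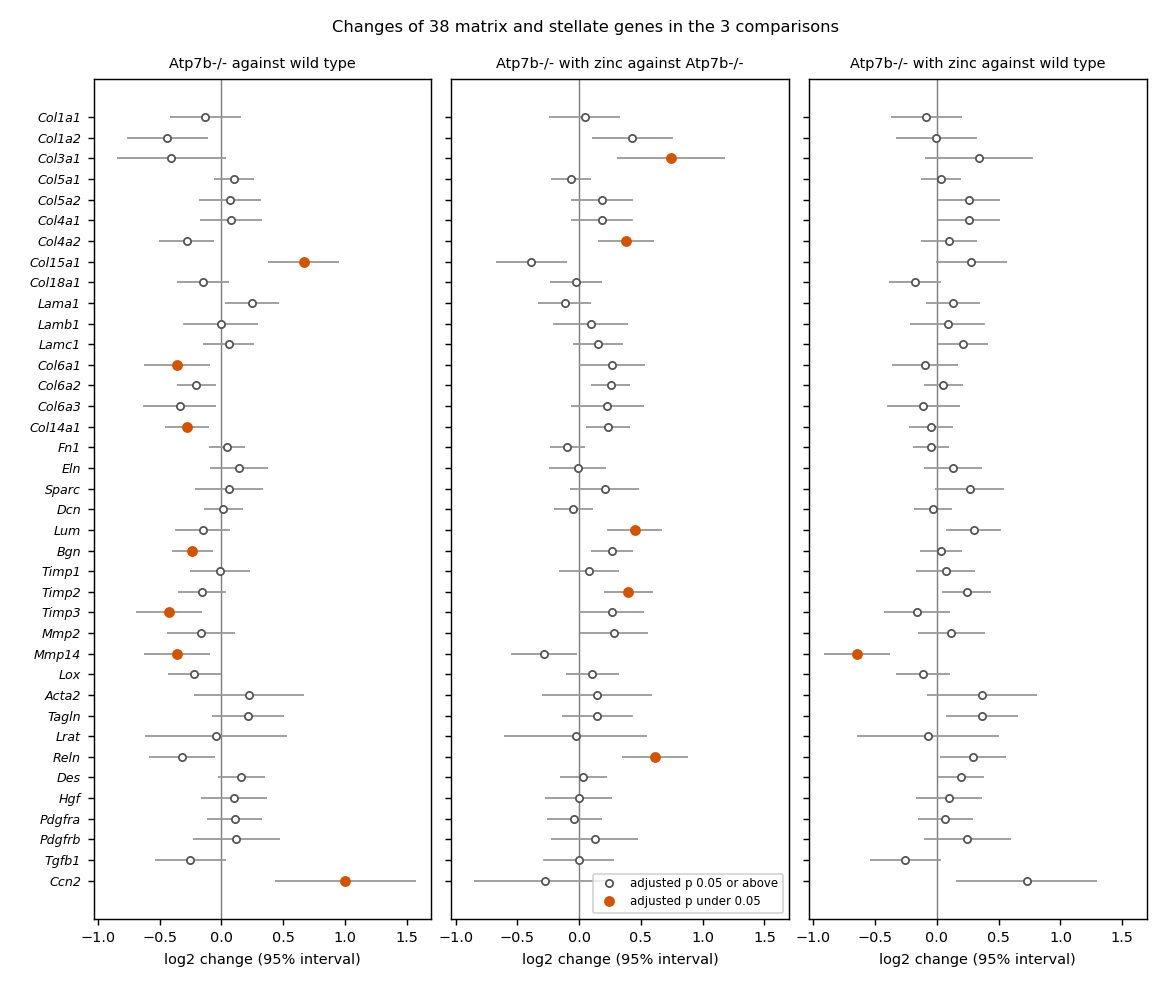
Log2 change of each of the 38 genes in the 3 comparisons (points) with its 95% interval from limma (lines), filled where the adjusted p over 18193 genes was under 0.05. The filled points number 7, 5 and 1 from left to right, and the widest intervals belong to Lrat and Ccn2.

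Glycoproteins and proteoglycans fill the matrix and bind its fibres. Fibronectin (Fn1), a plasma and matrix protein that hepatocytes also secrete, was 12.92 ± 0.05 in wild type, 12.97 ± 0.09 in Atp7b-/- and 12.87 ± 0.03 with zinc. Decorin (Dcn), a collagen-binding proteoglycan, was 11.09 ± 0.04, 11.10 ± 0.11 and 11.05 ± 0.06 in the same order. Their mutant differences had intervals from -0.10 to 0.19 and from -0.14 to 0.17. Lumican (Lum), a small proteoglycan that regulates fibril spacing, read 8.07, 8.26, 8.21 and 8.19 in wild type. It read 8.19, 7.94, 8.12 and 7.87 in Atp7b-/-, and 8.20, 8.50, 8.60 and 8.63 with zinc. The zinc-treated arrays lay above the untreated mutant ones, with replicate 1 of both groups nearly level. The zinc rise was 0.45 ± 0.10 (SE, adjusted p = 0.0199). It was lost without zinc-treated replicate 3 or 4 or Atp7b-/- replicate 2 or 4, and was 0.39 (adjusted p = 0.162) without both pancreatic arrays. Against wild type Lum differed by 0.30 with zinc (adjusted p = 0.102), which passed without zinc-treated replicate 1.

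Biglycan (Bgn), a proteoglycan related to decorin, was 9.60, 9.76, 9.66 and 9.88 in wild type and 9.59, 9.41, 9.51 and 9.46 in Atp7b-/-. With zinc it was 9.72, 9.69, 9.77 and 9.86. The lowest wild type array barely exceeded the highest mutant array, and the zinc-treated arrays lay within the wild type range. The mutant fall was -0.23 ± 0.08 (SE, adjusted p = 0.0444). It held without wild type replicate 1, Atp7b-/- replicate 1 or zinc-treated replicate 4, and was lost without any 1 of the other 9 arrays. Elastin (Eln), which gives vessels their recoil, and Sparc, a collagen-binding matricellular protein, did not pass in any comparison. A second Sparc probe set gave a mutant difference of 0.43, against 0.06 for the one used.

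Matrix metalloproteinases cut matrix proteins, and the Timp genes encode their inhibitors. Mmp14 encodes the membrane-bound protease that cuts fibrillar collagen and activates Mmp2. It read 8.20, 8.47, 8.23 and 8.33 in wild type, 8.02, 7.95, 7.88 and 7.94 in Atp7b-/-, and 7.84, 7.37, 7.46 and 7.99 with zinc. All 8 mutant arrays lay below all wild type arrays, and the 2 lowest values were those of the pancreatic arrays, zinc-treated replicates 2 and 3. Mmp14 fell by 0.36 in Atp7b-/- (SE 0.12, adjusted p = 0.0498) and by 0.64 with zinc against wild type (SE 0.12, adjusted p = 0.00566). The first call was lost without any 1 wild type or Atp7b-/- array or zinc-treated replicate 1. The second kept its call without any 1 array, and was -0.39 (adjusted p = 0.0538) without both pancreatic arrays. The other 2 Mmp14 probe sets gave -1.01 and -0.58 for zinc against wild type. Zinc-treated and untreated mutants differed by -0.29 (adjusted p = 0.195), and by -0.03 without the pancreatic arrays.

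Timp3 encodes an inhibitor that binds to the matrix. It read 7.22, 7.21, 6.79 and 6.97 in wild type, 6.76, 6.67, 6.67 and 6.38 in Atp7b-/-, and 7.04, 6.61, 6.94 and 6.95 with zinc. The untreated mutant arrays lay just below all wild type arrays. The fall was -0.43 ± 0.12 (SE, adjusted p = 0.0228). All 4 Timp3 probe sets were lower in the mutant, from -0.50 to -0.43. The call was lost without wild type replicate 1 or 2 or Atp7b-/- replicate 4. With zinc against wild type the probe set used differed by -0.16 (adjusted p = 0.497), while the dimmest differed by -0.66.

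Timp2, whose product both inhibits Mmp2 and takes part in its activation, read 8.24, 8.41, 8.40 and 8.27 in wild type. It read 8.41, 8.12, 8.15 and 8.02 in Atp7b-/- and 8.42, 8.61, 8.62 and 8.65 with zinc. The zinc-treated arrays were the 4 highest of the 12, although wild type replicate 2 and Atp7b-/- replicate 1 were nearly level with the lowest of them. The rise with zinc was 0.40 ± 0.09 (SE, adjusted p = 0.0199). It was lost without zinc-treated replicate 2, 3 or 4 or Atp7b-/- replicate 2 or 4, and was 0.36 (adjusted p = 0.149) without both pancreatic arrays. All 6 Timp2 probe sets were higher with zinc. Timp1, the inhibitor induced in many fibrotic livers, was 4.38 ± 0.17, 4.36 ± 0.15 and 4.45 ± 0.17 in wild type, Atp7b-/- and zinc-treated livers. Its mutant difference of -0.01 had an interval from -0.25 to 0.23, at a level below the lower quartile of all genes. Mmp2, which degrades type IV collagen, and Lox, the copper-dependent enzyme that crosslinks collagen and elastin, did not pass in any comparison. Lox differed by -0.22 in Atp7b-/- (adjusted p = 0.127).

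**Figure D3:**
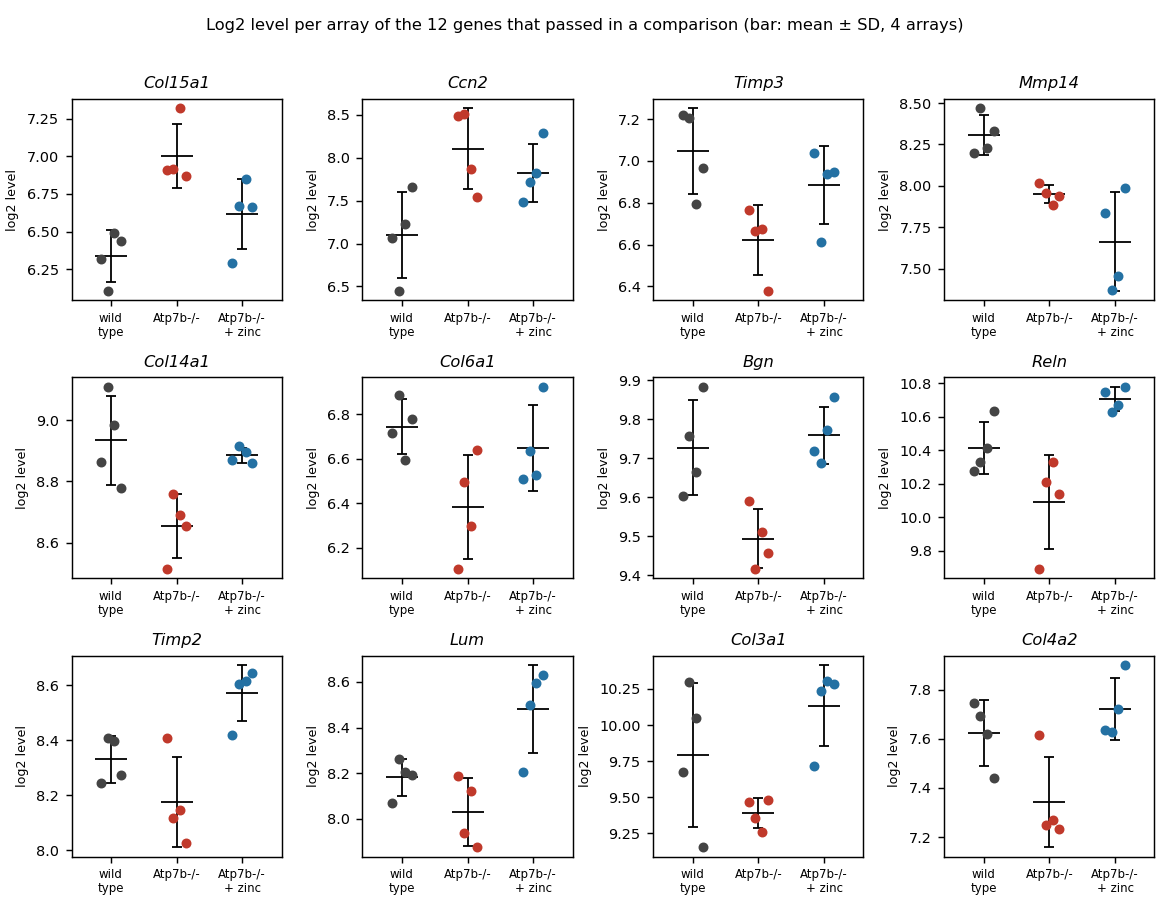
Log2 level of the 12 genes that passed in at least 1 comparison, with a point per array and the mean ± SD of each group. Each panel has its own axis. The untreated mutant arrays stand highest for Col15a1 and lowest for Col14a1, and the zinc-treated arrays stand highest for Timp2.

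The contractile genes are the usual markers of stellate cell activation. Acta2, which encodes alpha smooth muscle actin, read 6.90, 6.60, 7.26 and 6.78 in wild type, 6.58, 7.76, 7.06 and 7.02 in Atp7b-/-, and 7.02, 7.30, 7.22 and 7.48 with zinc. The 3 groups overlapped, and the single highest value was Atp7b-/- replicate 2. The mutant difference was 0.22, with an interval from -0.22 to 0.67. With zinc against wild type Acta2 differed by 0.37, which did not pass. Tagln, which encodes the actin-binding protein transgelin, differed by 0.22 in Atp7b-/- (interval -0.07 to 0.51) and by 0.36 with zinc against wild type (adjusted p = 0.127). The second Tagln difference passed without zinc-treated replicate 1. With zinc against wild type, limma called 0 of the 2 contractile genes, with 1 higher at an unadjusted p under 0.05.

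Quiescent stellate cells express Lrat, which esterifies retinol for storage, Reln, a secreted glycoprotein, Des, the intermediate filament desmin, and Hgf, a growth factor for hepatocytes. Reln read 10.28, 10.33, 10.41 and 10.63 in wild type, 9.69, 10.21, 10.33 and 10.14 in Atp7b-/-, and 10.75, 10.63, 10.67 and 10.78 with zinc. The zinc-treated arrays all lay above the untreated mutant arrays and overlapped the highest wild type array. Reln rose by 0.61 ± 0.12 (SE) with zinc against untreated mutants, or 1.53-fold, with an adjusted p of 0.00985. It kept its call without any 1 array, and was 0.67 (adjusted p = 0.0466) without the pancreatic arrays and 0.48 (adjusted p = 0.0114) without Atp7b-/- replicate 1. The dimmer Reln probe set gave a smaller zinc difference, of 0.16, so the size of the rise rests on the probe set used. Against wild type Reln differed by -0.32 in Atp7b-/- (adjusted p = 0.0750) and by 0.29 with zinc (adjusted p = 0.184). The mutant difference passed without Atp7b-/- replicate 3.

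Lrat was 8.11 ± 0.06 in wild type and 8.07 ± 0.19 in Atp7b-/-. With zinc it read 8.46, 7.24, 8.87 and 7.59, a spread wider than in either other group, and the 2 highest and 2 lowest values of the 12 arrays were all zinc-treated. The second Lrat probe set ordered the same 4 arrays alike, at 6.18, 5.10, 6.90 and 5.49. Of the arrays with pancreatic transcripts, replicate 2 was the lowest and replicate 3 the highest. Lrat differed from untreated mutants by -0.03, with an interval from -0.61 to 0.55. Hgf differed by 0.10 in Atp7b-/- (interval -0.17 to 0.37). Des differed by 0.16 in Atp7b-/- (adjusted p = 0.187) with the probe set used, whereas its dimmer probe set went the other way, at -0.60.

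**Figure D4:**
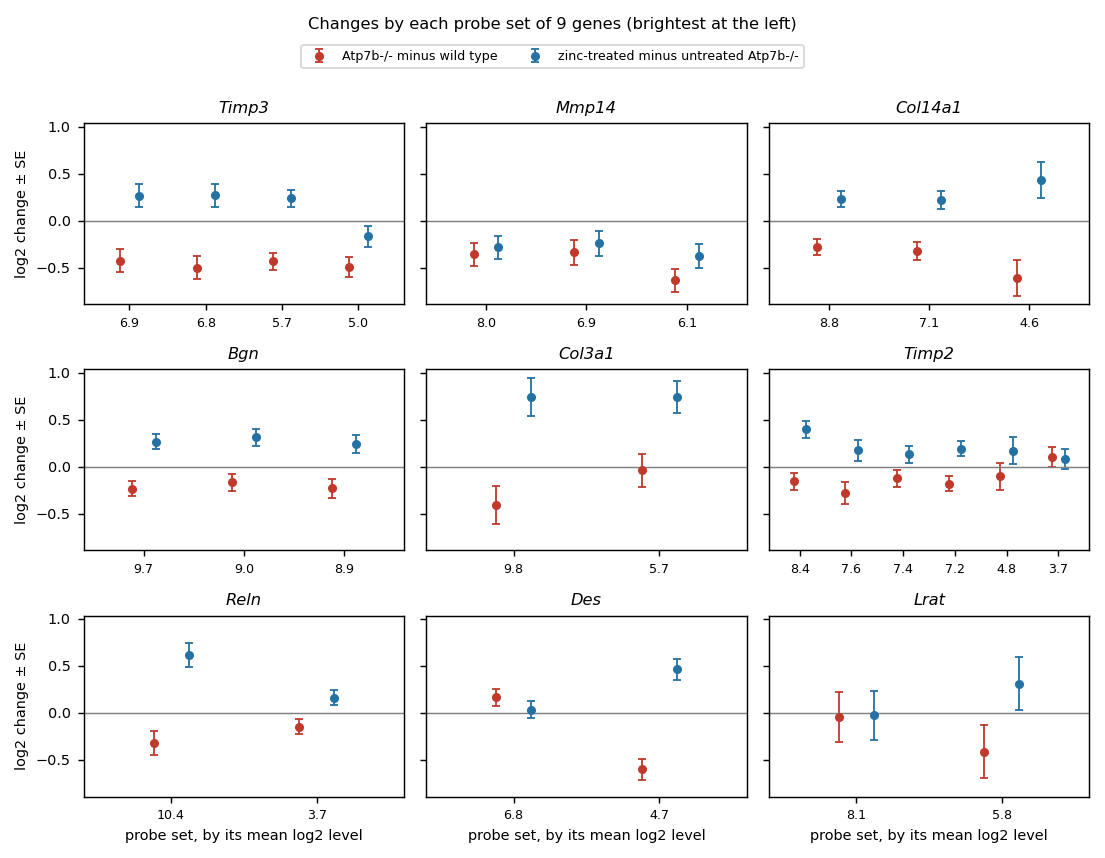
Log2 change ± SE at each probe set of 9 genes, ordered from the brightest at the left and labelled by mean log2 level over 12 arrays, for untreated Atp7b-/- minus wild type and for zinc-treated minus untreated Atp7b-/-. All 4 Timp3 and all 3 Mmp14 probe sets lie below 0 for the mutant, while the 2 Des probe sets lie on opposite sides.

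Pdgfra and Pdgfrb encode the receptors through which PDGF drives stellate cell division. Neither passed in any comparison, and their mutant differences were 0.11 (interval -0.11 to 0.33) and 0.12 (interval -0.23 to 0.47). Tgfb1, the main profibrotic cytokine, was 5.79 ± 0.26 in wild type, 5.53 ± 0.18 in Atp7b-/- and 5.53 ± 0.17 with zinc. Its mutant difference of -0.25 did not pass (adjusted p = 0.181), and the dimmer Tgfb1 probe set gave -0.38. Ccn2 encodes connective tissue growth factor, a matricellular protein and a target of both TGF-beta and Yap signalling. It read 7.06, 6.45, 7.23 and 7.66 in wild type, 8.49, 8.51, 7.87 and 7.55 in Atp7b-/-, and 7.48, 7.71, 7.82 and 8.29 with zinc. In the mutant 3 arrays exceeded all wild type arrays, and replicate 4 lay below the highest of them. Ccn2 rose by 1.00 ± 0.26 (SE) in Atp7b-/-, or 2.00-fold, with an adjusted p of 0.0143. It kept its call without any 1 array and lost it, at 0.88 (adjusted p = 0.0589), without Atp7b-/- replicate 1 together with both pancreatic arrays. Ccn2 stayed 0.73 above wild type with zinc, which did not pass (adjusted p = 0.121) except without wild type replicate 4. It differed by -0.28 from untreated mutants (adjusted p = 0.592).

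Fibrillar collagens, basement membrane genes and quiescent stellate markers were also set side by side. Against wild type, limma called 0 of 5, 1 of 7 and 0 of 4 of them in Atp7b-/-, beside 24.6% of all genes, with 1 of 5, 3 of 7 and 1 of 4 past an unadjusted p of 0.05. Their median log2 changes were -0.13, 0.06 and 0.03. With zinc against untreated mutants, 1 of 5, 1 of 7 and 1 of 4 rose, beside 1.70% of all genes, with medians of 0.19, 0.09 and 0.01. With zinc against wild type, limma called 0 of the 16 genes, with 5 higher at an unadjusted p under 0.05, and the medians were 0.03, 0.13 and 0.15. The mean over the 5 fibrillar collagens lay between 7.18 and 7.63 on wild type arrays, between 7.28 and 7.33 on untreated mutant arrays and between 7.30 and 7.72 with zinc. Untreated mutant arrays fell inside the wild type range, whose low end was wild type replicate 4 alone. The other wild type arrays, at 7.47 to 7.63, lay above every untreated mutant array. Differences between the 3 classes were not tested.

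Larger changes lay in matrix genes outside the 38. Of 26 other matrix genes, 7 rose and 1 fell in Atp7b-/-, beside 14.3% of all genes called higher and 10.3% lower. The median change of the 26 was 0.00. Lama3 and Lamb3 encode chains of laminin-332, the laminin of epithelial basement membranes. Lamb3 read 5.05, 4.97, 4.91 and 4.74 in wild type, 7.09, 6.52, 6.44 and 6.94 in Atp7b-/-, and 5.70, 5.58, 5.66 and 5.48 with zinc, and no 2 groups overlapped. It rose by 1.83 ± 0.13 (SE) in Atp7b-/- (adjusted p = 4.28e-07) and fell by 1.14 with zinc against untreated mutants (adjusted p = 0.000253), to 0.69 above wild type (adjusted p = 0.00593, or 0.0603 without the pancreatic arrays). Lama3 rose by 2.56 ± 0.41 (SE, adjusted p = 0.000517) and fell by 2.08 with zinc (adjusted p = 0.00847). Its untreated mutant arrays ranged from 8.02 to 10.73. Fbln1, which encodes the matrix protein fibulin-1, rose by 2.07 (SE 0.27, adjusted p = 9.62e-05) from 6.15 ± 0.11 to 8.22 ± 0.77. With zinc it fell by 2.12 (adjusted p = 0.00045), to 6.11 ± 0.08. For Fbln1 and Lama3 another probe set showed no such change, at -0.14 and -0.13 in Atp7b-/-, so the values rest on the probe sets used. Without the pancreatic arrays the Lama3 zinc difference was -2.06 (adjusted p = 0.0622).

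Col5a3, a type V collagen chain, lay between 7.34 and 8.17 in wild type, and read 9.12, 9.28, 9.31 and 9.36 in Atp7b-/-, and 8.31, 8.19, 8.09 and 8.21 with zinc. It rose by 1.43 ± 0.14 (SE, adjusted p = 7.77e-06) and fell by 1.06 with zinc (adjusted p = 0.000595), although its dimmer probe set gave -0.12 and 0.09. Col4a5, a type IV chain of specialised basement membranes, behaved otherwise. It read 5.17, 5.41, 5.16 and 5.55 in wild type, 6.41, 7.65, 6.64 and 7.44 in Atp7b-/-, and 6.86, 6.69, 6.71 and 7.75 with zinc. Both mutant groups lay above wild type, by 1.71 (adjusted p = 0.000592) and 1.68 (adjusted p = 0.00194), with -0.03 between them (adjusted p = 0.963). The basement membrane linker Nid1 also exceeded wild type in both, by 0.56 and 0.61 (adjusted p = 0.00149 and 0.00222). Of its 3 probe sets, 1 was higher in the untreated mutant and all 3 were higher with zinc, by 0.03 to 0.61. With zinc against untreated mutants, 5 of the 26 fell, beside 4.84% of all genes, and limma called 0 higher, beside 1.70%. Agrn was among those that fell, by 0.34 with the probe set used, whereas its other probe set gave 0.06. That Agrn call was lost without zinc-treated replicate 3 or Atp7b-/- replicate 4, and without both pancreatic arrays. At an unadjusted p under 0.05, 3 of the 26 were higher.

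**Figure D5:**
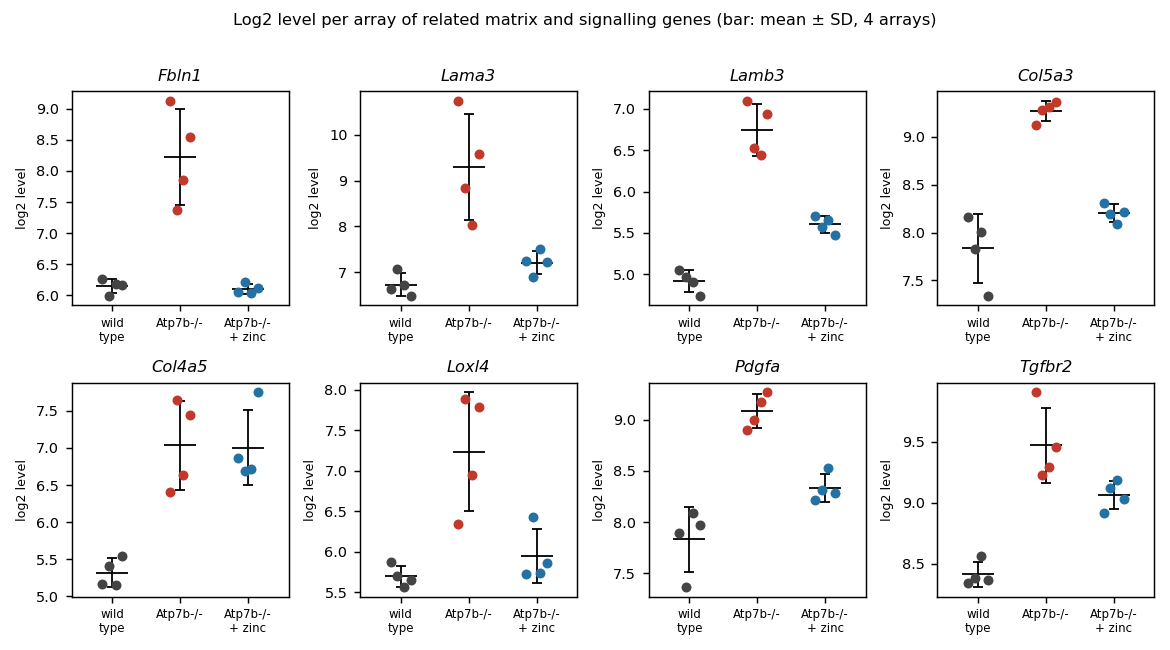
Log2 level of 8 related matrix and signalling genes, with a point per array and the mean ± SD of each group, each panel on its own axis. Fbln1, Lama3, Lamb3, Col5a3 and Loxl4 are high on untreated Atp7b-/- arrays and lower on average with zinc, while Col4a5 is high in both mutant groups.

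Among 17 genes of collagen processing, 2 rose and 2 fell in Atp7b-/-, beside 14.3% of all genes called higher and 10.3% lower. Loxl4, a copper-dependent crosslinking enzyme related to Lox, rose by 1.54 (adjusted p = 0.00138) and fell by 1.29 with zinc against untreated mutants (adjusted p = 0.0140). Its wild type arrays lay between 5.57 and 5.88 and its untreated mutant arrays between 6.34 and 7.88, and the lowest of these overlapped the zinc-treated range of 5.73 to 6.43. Crtap, which takes part in collagen prolyl 3-hydroxylation, fell by 0.57 (adjusted p = 0.00185). P4ha1, a subunit of collagen prolyl 4-hydroxylase, fell by 0.37 (adjusted p = 0.0255) and, with zinc, by 0.54 against wild type (adjusted p = 0.00742, or 0.0800 without the pancreatic arrays). The untreated P4ha1 call was lost without wild type replicate 2 or 4 or without Atp7b-/- replicate 1, 2 or 4. Pcolce, which enhances procollagen cleavage, rose by 0.35 (adjusted p = 0.0329), a call lost without wild type replicate 1 or 4 or Atp7b-/- replicate 2, 3 or 4. In the matrix degradation list 1 of 21 genes passed in Atp7b-/-, beside 24.6% of all genes. It was the protease gene Mmp19, which rose by 0.66 (adjusted p = 0.00149).

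Of 23 genes of TGF-beta and PDGF signalling, 3 rose and 2 fell in Atp7b-/-, beside 14.3% of all genes called higher and 10.3% lower. Pdgfa, a PDGF ligand, lay between 7.37 and 8.09 in wild type, between 8.90 and 9.27 in Atp7b-/-, and between 8.21 and 8.53 with zinc. All 3 groups were apart. It rose by 1.25 ± 0.14 (SE, adjusted p = 2.72e-05) and fell by 0.75 with zinc (adjusted p = 0.00691). Pdgfc, another ligand, went the opposite way, by -0.91 (adjusted p = 0.000204) in Atp7b-/- and 0.68 with zinc against untreated mutants (adjusted p = 0.00725, or 0.0522 without the pancreatic arrays). Tgfbr2, the TGF-beta type II receptor, rose by 1.06 (adjusted p = 5.13e-05) and stayed 0.65 above wild type with zinc (adjusted p = 0.0067, or 0.0920 without the pancreatic arrays). The mutant rise was seen at 2 of its 3 probe sets. Tgfbr1, the type I receptor, fell by 0.37 in Atp7b-/- (adjusted p = 0.00477). The cell source of these transcripts was not measured.

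Markers of the cells a liver sample could hold moved as follows beside the results above. Of 15 further stellate cell markers, 2 rose in Atp7b-/-, beside 14.3% of all genes. They were Rgs5, by 0.58 (adjusted p = 0.0259), and Steap4, by 0.39 (adjusted p = 0.0475). The other Steap4 probe set gave -0.05. The list mean minus that of wild type ran from -0.08 to 0.19 in Atp7b-/- and from -0.04 to 0.19 with zinc, against -0.05 to 0.10 in wild type. The Rgs5 call was lost without wild type replicate 3 or 4 or Atp7b-/- replicate 2 or 3, and the Steap4 call without wild type replicate 1, 3 or 4, Atp7b-/- replicate 1, 3 or 4 or zinc-treated replicate 1. Of 10 myofibroblast and smooth muscle markers, 1 rose in Atp7b-/-, beside 14.3% of all genes. This was Tpm1, a tropomyosin, by 0.77 (adjusted p = 4.3e-05), at 3 of its 4 probe sets. With zinc Tpm1 was 0.51 above wild type (adjusted p = 0.0034). Tpm2, another tropomyosin, rose by 0.54 with zinc against untreated mutants (adjusted p = 0.0352) and by 0.51 against wild type (adjusted p = 0.0408). The first Tpm2 call was lost without any 1 zinc-treated array or Atp7b-/- replicate 1 or 3, the second without any 1 zinc-treated array or wild type replicate 1, 2 or 3, and both without the pancreatic arrays. Of 10 portal fibroblast markers, 3 rose in Atp7b-/-, beside 14.3% of all genes. The same 3 fell with zinc against untreated mutants, beside 4.84% of all genes. The 3 were Fbln1, the ectonucleotidase Entpd2 by 1.11 and -0.94, and Gas6, a ligand of receptor tyrosine kinases, by 1.09 and -1.05. The dimmer Gas6 probe set gave -0.40 and 0.16, and the Gas6 fall with zinc did not pass without the pancreatic arrays (adjusted p = 0.0602). Over all 10 the median change in Atp7b-/- was 0.03, with 5 higher and 5 lower. The list mean minus wild type, to which Fbln1, Entpd2 and Gas6 add most, was 0.28 to 0.56 in Atp7b-/-, -0.11 to 0.07 in wild type and -0.12 to 0.15 with zinc.

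All 12 Kupffer cell and macrophage markers were lower in Atp7b-/-. Of these, 7 passed, beside 10.3% of all genes called lower, among them Adgre1 (-0.71, adjusted p = 0.00839). In all 12 the arrays of both groups overlapped, while 26.4% of all genes did not overlap. The list mean minus wild type ran from -0.87 to 0.05 in Atp7b-/-, from -0.69 to -0.39 with zinc and from -0.47 to 0.41 in wild type. Atp7b-/- replicate 1 was the array at 0.05, and the other untreated mutant arrays lay between -0.87 and -0.65. Among 12 endothelial markers 2 rose and 3 fell in Atp7b-/-, beside 14.3% of all genes called higher and 10.3% lower. Clec4g was at -0.82 (adjusted p = 1.04e-05) and Tek at 1.54 (adjusted p = 0.000204). Among epithelial keratins, Krt8, listed here as a mesothelial marker, rose by 0.95 in Atp7b-/- (adjusted p = 0.000446), and the cholangiocyte marker Krt19 rose by 0.47 (adjusted p = 0.0196). Each was the 1 gene called in its list, of 7 and 6 genes, beside 24.6% of all genes. The mesothelial list had 2 genes higher and 5 lower in Atp7b-/-, with a median change of -0.08. The cholangiocyte list had 3 higher and 3 lower, with a median of 0.04. The mean of 10 hepatocyte markers was 14.18 to 14.24 in Atp7b-/-, below all wild type arrays at 14.26 to 14.29, and was 14.22 to 14.27 with zinc. Of these 10, 1 passed, beside 24.6% of all genes. It was Hnf4a, at -0.25 (adjusted p = 0.0233), a call lost without wild type replicate 1 or Atp7b-/- replicate 1 or 4. Wild type replicate 4, which had the lowest Kupffer cell mean of its group, was also the lowest wild type array for Col1a2, Col3a1 and Col6a3. The part of these cell markers, and of the 3' to 5' measure, in the changes of the 38 genes and of the related matrix genes was not tested.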

How the data were processed

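The 12 liver arrays fall into 3 groups of 4. The authors deposited log2 values of 45101 probe sets, and no label or header names their normalization. The values were used without further scaling. Probe sets with exactly 1 gene symbol (34945) were kept, and those with several symbols (932), no symbol (9160) or control names (64) were left out. The probe set of highest mean stood for each of 18193 genes.

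Groups were compared in 1 fit with limma 3.58.1 in R 4.3.3 (lmFit, contrasts.fit, eBayes), with Benjamini-Hochberg adjustment over all 18193 genes in each comparison. A gene passed at an adjusted p under 0.05, "rose" and "fell" are used for such genes, and intervals are 95% intervals of the fit. The script was tested on simulated data. The number of arrays limits the precision. All measured genes of the list were named. From each related list, up to 4 genes per comparison with the smallest adjusted p among those that passed could be named, of which a part is described. The members, lists, rule and alternatives were chosen with earlier results of these data known. Promoters and current symbols came from RefSeq. The 24 alternative settings covered normalization, choice of probe set, dim genes, variance model, array weights, groups in the fit, a replicate block, a minimum change of 0.3 and arrays left out.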

Additional observations from a re-analysis of the deposited data

Results flagged for a closer look

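A group of 4 arrays was marked when 1 array's gap to its nearest neighbour took up more than 0.829 of the group's range (Dixon's 95% limit). This held for 8 of 114 combinations of gene and group, and chance marks about 1 in 20.

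Of these, 4 involve collagens that were discussed for their changes or their overlap. Col3a1 was low on zinc-treated replicate 1, at 9.71 against 10.2 to 10.3 on the other 3 arrays. Col4a2 was high on Atp7b-/- replicate 1, at 7.61 against 7.23 to 7.27. Col15a1 was high on Atp7b-/- replicate 3, at 7.32 against 6.87 to 6.92. Col6a3 was low on wild type replicate 4, at 7.14 against 7.51 to 7.58.

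The other 4 lie in genes that did not pass. Eln was high on Atp7b-/- replicate 1, at 6.48 against 6.04 to 6.11. Des was high on zinc-treated replicate 3, at 7.08 against 6.85 to 6.87. Lama1 was low on wild type replicate 3, at 4.94 against 5.27 to 5.31, and so was Col18a1, at 11.58 against 11.65 to 11.66.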

How the results depend on the processing

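Of the 7 genes called in Atp7b-/- against wild type, the count was 13 after quantile normalization, 13 after median centring, 4 with only the 2 groups fitted and 0 for a change beyond 0.3 log2 units, and ran from 2 to 8 as each array was left out. Without wild type replicate 2 it was 2, without Atp7b-/- replicate 4 it was 3, and without wild type replicate 1 or 3 or Atp7b-/- replicate 2 it was 4. The 5 genes higher with zinc than in untreated mutants became 8 after quantile normalization, or 21.1%, beside 6.49% of all genes. They became 7 after median centring, or 18.4%, beside 6.00% of all genes. The count was 0 for a change beyond 0.3, 1 without the pancreatic arrays, and 3 without these and Atp7b-/- replicate 1. It ran from 1 to 6 as each array was left out. The 1 gene called with zinc against wild type became 2 when a gene's probe sets were averaged, 2 without probe sets of suffix _a, _s or _x, 0 for a change beyond 0.3, 0 without the pancreatic arrays and 0 without these and Atp7b-/- replicate 1, with 1 to 4 as each array was left out. Fits with a replicate block gave 5, 3 and 1. Apart from the scalings, shares of all genes are not given here for these settings. The counts alone cannot show whether calling moved for the list or for all genes alike. After subtraction of group means, correlations of same-numbered arrays ran from -0.13 to 0.24. Arrays of different numbers were not compared in this way, so these values cannot show whether the numbers pair the samples. Calls were kept in 23 of 24 settings for Col15a1 and Reln, 22 for Ccn2, 20 for Timp3, 17 for Col14a1 and Lum, 16 for Timp2, 12 for Mmp14 in Atp7b-/-, 21 for Mmp14 with zinc against wild type, 10 for Col3a1 and Col4a2, and 9 for Bgn and Col6a1, and no called member changed sign. Without probe sets of suffix _a, _s or _x, which moves both genes to a dimmer probe set, Fbln1 reversed to -0.14 in Atp7b-/- and 0.072 with zinc against untreated mutants, and Lama3 to -0.13 and 0.076. Over all genes, 58.2% of calls in Atp7b-/- against wild type were higher, 44.8% after quantile normalization and 36.2% after median centring. For zinc against untreated mutants these shares were 26.0%, 44.7% and 36.3%, and for zinc against wild type 64.2%, 54.5% and 52.1%. The causes of these shifts were not tested.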
